A study of Mus musculus with 4 samples.

Results

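Chil1, Chil3, Chil4, Chia1, Retnla, Retnlg, Arg1, Mrc1 and Mgl2 are 9 mouse genes that are read as a set when macrophage activation is described. They were taken by symbol from the 32289 genes counted in the files, and all 9 were found in each of 4 single-cell libraries from lung tumours. Their transcripts were followed to macrophages, neutrophils and epithelial cells, and the libraries were compared by treatment and by the removal of immune and endothelial cells.

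The mice carried KrasFSF-G12D, p53frt, Rosa-FSF-CreERT2 and Hnf4aflox in all 4 libraries. Tumours were started with an adenovirus that expresses the FlpO recombinase from a surfactant protein C promoter, which is active in alveolar type 2 cells, so the Flp-dependent alleles, the tamoxifen-inducible Cre among them, depend on cells that received that virus. Tamoxifen, or a vehicle that is given as corn oil in 1 label and as ethanol in another, followed 10 weeks after intubation, and tumours were taken 2 weeks later. Single tumours visible to the eye were brought into suspension. Some cells were frozen as they were (vehicle, before depletion and tamoxifen, before depletion), and the remainder was frozen after CD45-positive and CD31-positive cells had been withdrawn on magnetic beads (vehicle, after depletion and tamoxifen, after depletion). Each of the 4 groups is 1 library, the number of mice and tumours in each was not given in the sources used here, and the libraries before and after depletion are portions of the same suspensions. No p-value can be given, and intervals below cover counting error only. The titles call the vehicle libraries KP and the tamoxifen libraries KPH, although the genotype label is the same for all.

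Hnf4a, the floxed gene, was checked first. In epithelial-like cells it stood at 49.2 and 49.0 CPM (counts per 1000000 counts) in the vehicle libraries before and after depletion, and at 82.9 and 80.1 CPM in the libraries labelled tamoxifen. The level thus goes against the label, although 3′ counts do not show whether the floxed exons were lost, and every difference below is one between the vehicle library and the library labelled tamoxifen.

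Type 2 activation is the response of macrophages to interleukin 4 and interleukin 13, which bind receptors that share the Il4ra chain and activate the transcription factor Stat6. Chil3 (Ym1), Retnla (Fizz1) and Arg1 are its best known mouse transcripts, and the lectin receptors Mrc1 (CD206) and Mgl2 (CD301b) are used with them as surface markers. The chitinase-like proteins Chil1, Chil3 and Chil4 bear the fold of a chitinase without its activity, while Chia1 is an active acidic chitinase. Retnla and Retnlg encode small secreted proteins of the resistin family, and arginase 1 splits arginine into ornithine and urea. None of these genes belongs to macrophages alone: in the lung, airway and alveolar epithelium can make chitinase-like and resistin-like proteins, and neutrophils are the known source of Retnlg.

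The genes lie in 2 clusters and 4 single places (GENCODE M21, GRCm38). Retnla (ENSMUSG00000061100, chr16:48842551-48844461, plus strand) and Retnlg (ENSMUSG00000022651, chr16:48872621-48874496, plus strand) are 28159 bases apart. Chia1 (ENSMUSG00000062778, chr3:106113229-106132120, plus strand), Chil3 (ENSMUSG00000040809, chr3:106147554-106167564, minus strand) and Chil4 (ENSMUSG00000063779, chr3:106201490-106219507, minus strand) stand in a row, with 15433 and 33925 bases between them. Chil1 (ENSMUSG00000064246) is at chr1:134182176-134190181, plus strand, Arg1 (ENSMUSG00000019987) at chr10:24915221-24927484, minus strand, Mrc1 (ENSMUSG00000026712) at chr2:14229392-14332057, plus strand, and Mgl2 (ENSMUSG00000040950) at chr11:70130329-70137550, plus strand.

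Upstream sequences of the 2 pairs of neighbours are shown because the members of each pair are alike in sequence and, as the levels below show, were found in different cells or at very different levels. They come from RefSeq (GRCm38.p6), end at or before the annotated gene, run 5′ to 3′ on the strand of the gene, and carry in capitals the only match in 250 bases before the RefSeq start to TTCNNNGAA or TTCNNNNGAA. Stat proteins bind sites of this form, and the longer spacing is the one Stat6 prefers. Retnla is from chr16:48842359-48842550 and Retnlg from chr16:48872358-48872607, both plus strand. Chil3 is from chr3:106167565-106167814 and Chil4 from chr3:106219508-106219729, both minus strand.
Retnla: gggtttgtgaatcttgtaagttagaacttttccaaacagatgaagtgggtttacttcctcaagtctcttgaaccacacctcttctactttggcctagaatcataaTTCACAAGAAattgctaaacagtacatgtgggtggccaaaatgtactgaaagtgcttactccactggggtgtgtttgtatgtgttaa
Retnlg: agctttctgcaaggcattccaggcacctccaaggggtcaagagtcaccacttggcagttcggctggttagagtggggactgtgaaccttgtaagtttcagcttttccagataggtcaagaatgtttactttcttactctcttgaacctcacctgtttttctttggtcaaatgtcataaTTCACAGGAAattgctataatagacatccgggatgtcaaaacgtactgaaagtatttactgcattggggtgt
Chil3: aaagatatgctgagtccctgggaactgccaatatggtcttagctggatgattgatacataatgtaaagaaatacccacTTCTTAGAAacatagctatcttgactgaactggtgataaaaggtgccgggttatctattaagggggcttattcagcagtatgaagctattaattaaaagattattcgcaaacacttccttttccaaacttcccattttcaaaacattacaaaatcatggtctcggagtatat
Chil4: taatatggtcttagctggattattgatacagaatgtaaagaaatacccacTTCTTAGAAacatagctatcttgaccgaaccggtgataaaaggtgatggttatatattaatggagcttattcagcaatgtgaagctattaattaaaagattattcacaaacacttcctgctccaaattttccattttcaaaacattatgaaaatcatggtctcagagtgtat

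Alignments used the 250 bases before the RefSeq start, which for Retnla and Chil4 run on past the 192 and 222 bases printed. Retnla and Retnlg were 77.5% identical there over 178 aligned positions, and Chil3 and Chil4 were 90.1% identical over 223. Retnla held TTCACAAGAA with its first base 145 bases before the RefSeq start, and Retnlg held TTCACAGGAA 72 bases before it. Chil3 and Chil4 held the same TTCTTAGAA, at 172 and 200 bases. No match of either form was found in that window of Chil1, Chia1, Mrc1 or Mgl2. Both forms read as the same pattern on the 2 strands. TTCNNNGAA occurred in 7.02% and TTCNNNNGAA in 5.85% of the 32851 RefSeq promoters searched over the same length, so a match is a description of these letters and no more. Over whole transcripts Chil3 and Chil4 were 94.2% identical and Retnla and Retnlg 83.2%, and over the last 400 bases, where 3′ reads fall, 89.8% and 79.6%. The longest stretch without a difference there was 35 bases for Chil3 and Chil4 and 25 for Retnla and Retnlg, so reads can be told apart but the low counts of Chil4 are to be read with that likeness in mind.

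The deposited matrices held 6558 to 7867 barcodes a library, of which 6111 to 7358 were kept, with a median of 9302 to 9894 unique molecular identifiers (UMIs, 1 for each captured transcript) in cells before depletion and 16484.5 to 17733 after. Any pair of libraries shared 10 to 18 barcodes. Cells were clustered without the 9 genes, and clusters were named from other markers, so the names below owe nothing to the levels of the 9 genes. Levels are given as CPM of UMIs summed over the cells of a class. The alveolar macrophage-like class joined a cluster led by Ear10 and Ear2 with one led by Lepr and Htr2c. The C1q macrophage-like class was led by C1qa, C1qb, C1qc and Ms4a7. It also held dendritic cells, which a finer clustering described below set apart as a cluster led by Asgr2 and Cd209a. The monocyte class, named non-classical and led by Adgre4 and F13a1, also held cells with Ly6c2, the marker of classical monocytes.

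**Figure D1:**
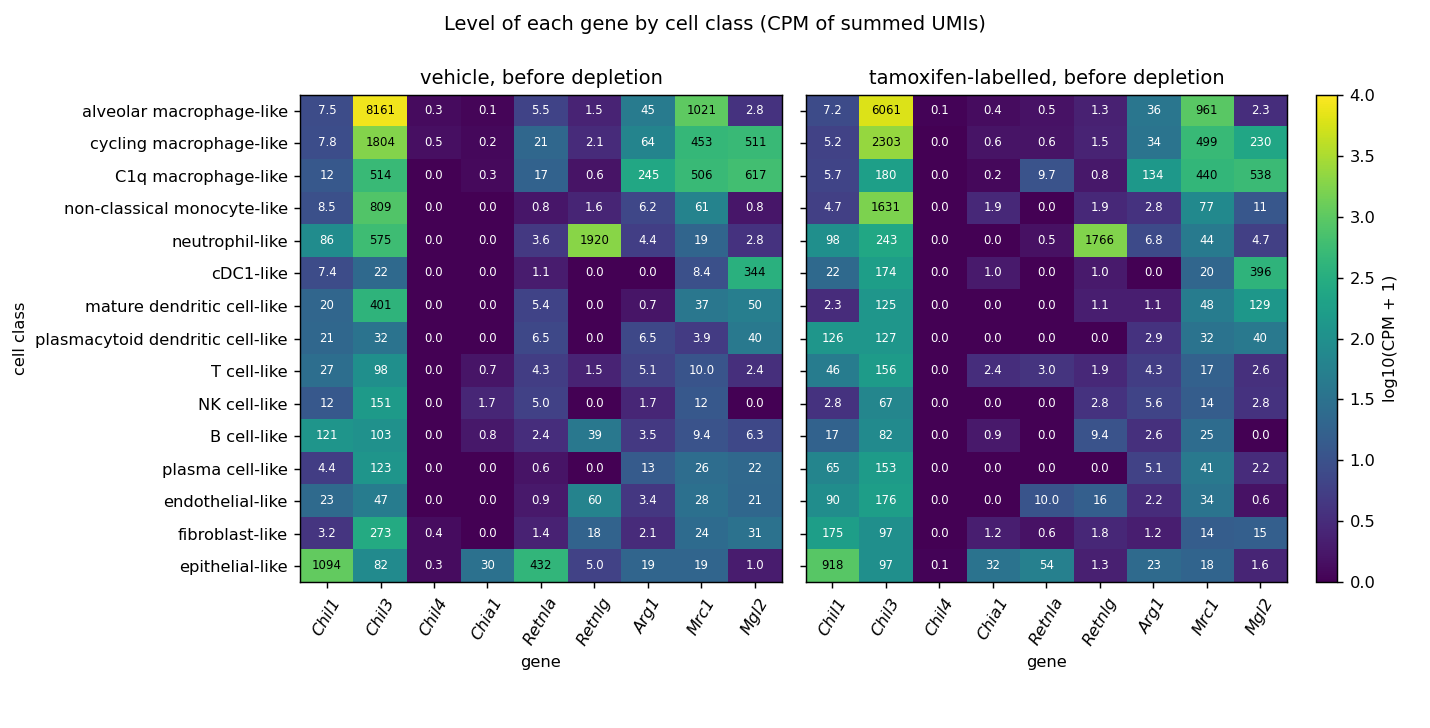
Level of each of the 9 genes (columns) in 15 cell classes (rows) of the 2 libraries before depletion, printed as CPM and coloured by log10(CPM + 1). Chil3 and Mrc1 stood highest in alveolar macrophage-like cells, Chil1, Chia1 and Retnla in epithelial-like cells, Retnlg in neutrophil-like cells, and Arg1 and Mgl2 in the C1q macrophage-like class, in both libraries. That class also held dendritic cells.

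The 9 genes did not mark a single cell type. Chil3 and Mrc1 were led by alveolar macrophage-like cells, Arg1 and Mgl2 by the C1q macrophage-like class, Retnlg by neutrophil-like cells, and Chil1, Chia1 and Retnla by epithelial-like cells, while Chil4 was all but missing. For Mgl2 the dendritic cells within the C1q class stood higher than its macrophages at the finer clustering. Retnla, one of the classical macrophage transcripts, had 95.3% of its UMIs before depletion in epithelial-like cells with vehicle, and 90.6% in the library labelled tamoxifen. Between treatments, 39 combinations of a gene and a class reached 10 CPM in at least 1 of the libraries before depletion, and in 15 of them the libraries were at least 2-fold apart on log2(CPM + 1), the rule of size used here. Over all genes, 0.405% (alveolar macrophage-like) to 5.61% (B cell-like) passed it, by class, among cells before depletion. The largest in a gene's own leading class was Retnla, which was lower in the epithelial-like cells labelled tamoxifen both before and after depletion.

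Chil3, whose protein forms crystals in mouse lung when abundant, stood in alveolar macrophage-like cells at 8161 CPM (8113 to 8209, exact Poisson 95% interval, 1462 cells) with vehicle and at 6061 CPM in the library labelled tamoxifen (1937 cells). The log2 ratio was -0.43 (-0.44 to -0.42, exact conditional binomial 95% interval), under the 2-fold rule, which 0.405% of the 7905 genes tested in this class passed. These cells held 79.8% and 86.1% of the Chil3 UMIs of the 2 libraries. After each cell was thinned to 2000 UMIs, 97.3% and 96.3% of alveolar macrophage-like cells still had Chil3, against 9.28% and 9.06% of T cell-like cells, which should lack it. Median depths were 8429 and 8744 UMIs in the macrophages and 5722.5 and 5920 in the T cell-like cells, and the unthinned shares were 99.0% and 99.1% against 19.7% and 24.3%.

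Within the alveolar macrophage-like cells Chil3 was graded. At a finer clustering (Leiden resolution 2, which sets how many clusters are drawn), the Ear10-led cluster stood at 10109 CPM with vehicle and 7663 in the library labelled tamoxifen, the Htr2c-led cluster at 6880 and 6476, and the Adamdec1-led cluster at 2549 and 2484. The order of the 3 was the same in both libraries. Cycling cells divided along the same line: the cycling cluster with alveolar macrophage genes had 6831 and 5760 CPM, and the cycling cluster with C1q genes 284 and 158. The Adamdec1-led cluster was 85 cells with vehicle and 335 in the library labelled tamoxifen.

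**Figure D2:**
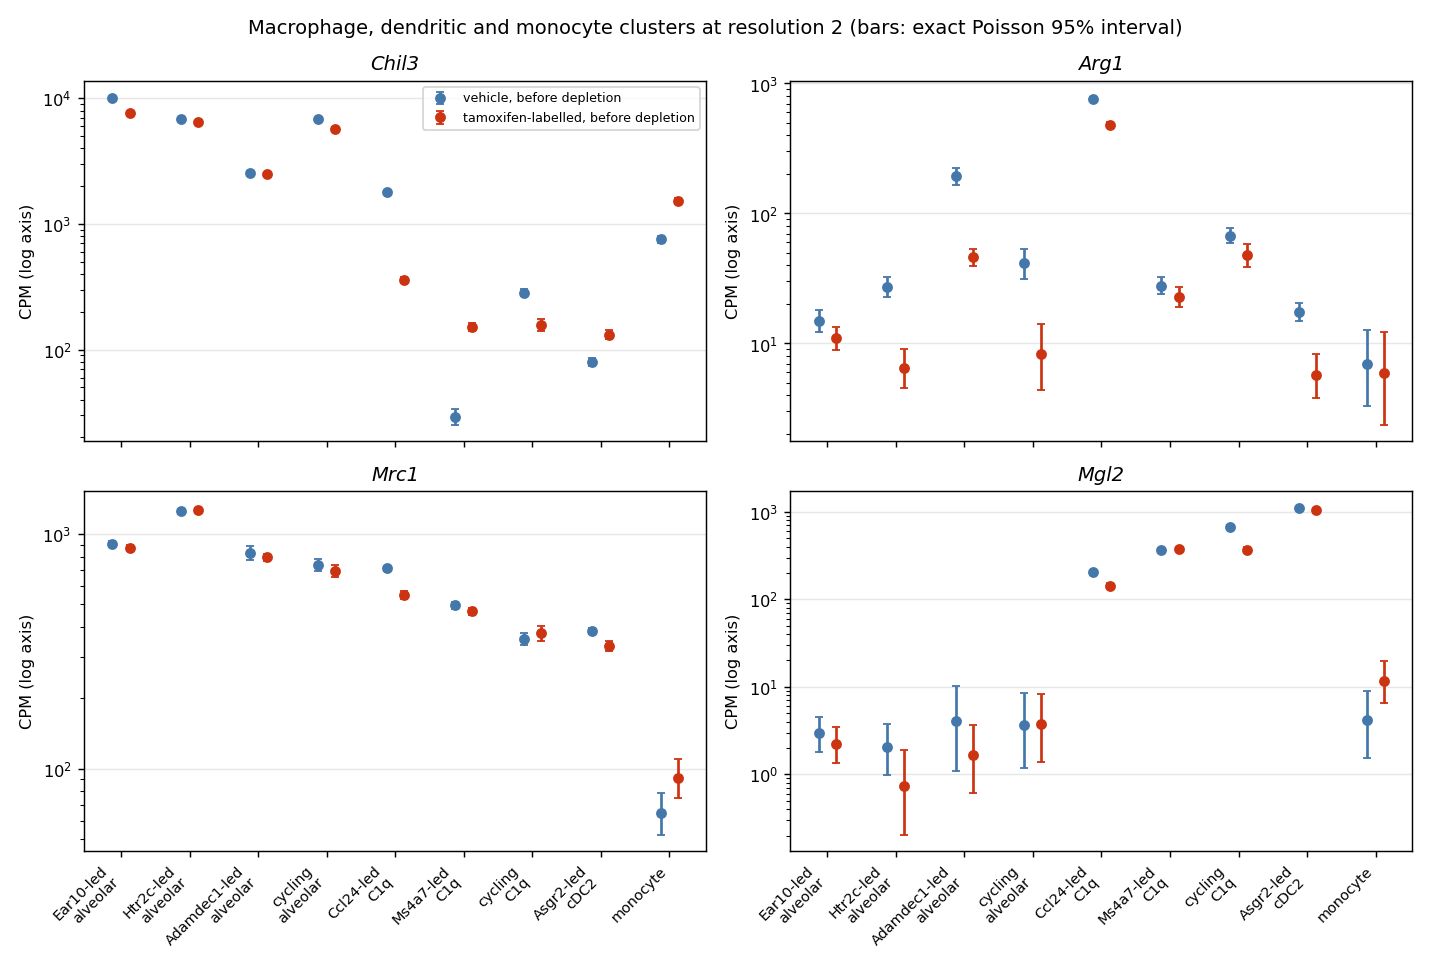
Chil3, Arg1, Mrc1 and Mgl2 in 9 macrophage, dendritic cell and monocyte clusters at resolution 2 (CPM, log axis; blue, vehicle, and red, labelled tamoxifen, both before depletion; bars, exact Poisson 95% interval). Chil3 ran from 10109 CPM in the Ear10-led cluster to 29.3 in the Ms4a7-led C1q cluster of the vehicle library, Arg1 was highest in the Ccl24-led cluster and Mgl2 in the dendritic cluster.

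In C1q macrophage-like cells Chil3 was at 514 CPM with vehicle (1267 cells) and 180 CPM in the library labelled tamoxifen (778 cells), a log2 ratio of -1.50 (-1.57 to -1.45). It was 1 of 6 members at 10 CPM in this class and the one that passed the rule, which 0.741% of 8098 genes passed (0.408% on the lower side). The difference lay in few cells. In the vehicle library 7 cells held 50% of the UMIs of the class, and 19 cells reached 10000 CPM, while in the library labelled tamoxifen no cell did. Without the 10 cells with most Chil3 UMIs in each library the levels were 199 and 122 CPM and the log2 ratio -0.70, and with clusters drawn on the 9 genes as well they were 179 and 197 CPM and 0.14, since 16 of the 19 cells then joined an alveolar macrophage cluster. Thinned shares of cells with Chil3 were 13.3% and 14.8%, beside 9.28% and 9.06% in T cell-like cells, and unthinned shares 40.4% and 41.4%.

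Those 19 cells, singled out after their values were seen, were described against the other 1248 C1q macrophage-like cells of the vehicle library and against its alveolar macrophage-like cells. They held 38946 CPM of Chil3 and 1038 CPM of Arg1, against 137 and 238 CPM in the other C1q macrophage-like cells. Mgl2 was at 17.8 CPM against 623. Fn1 (fibronectin) was at 5260 CPM, against 1259 in the other C1q cells and 355 in alveolar macrophage-like cells, and the integrin Itgam was at 477 against 178 and 10.4. Fabp4 and Siglecf, 2 of the alveolar macrophage markers used to name the classes, were at 4.45 and 8.91 CPM, against 133 and 70.3 in the alveolar macrophage-like class. The other markers of that list are not given here. The alveolar macrophage protease gene Ctsk was at 1487 against 418 in that class and 8.04 in the other C1q cells. C1qa, also a marker used to name the classes, was at 316 CPM against 2241 in the other C1q cells. All 19 lay in the Ccl24-led cluster of resolution 2, where Chil3 was at 1793 CPM with vehicle and 360 in the library labelled tamoxifen.

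In the monocyte class Chil3 was higher in the library labelled tamoxifen, at 1631 CPM (105 cells) against 809 CPM (135 cells), a log2 ratio of 1.01 (0.90 to 1.12). Here 5.25% of the genes tested passed the rule (2.91% on the higher side). Thinned shares were 40.7% of cells with vehicle and 65.7% in the library labelled tamoxifen, and the log2 ratio was 1.29 without the 10 top cells of each library. Split by markers after the values were seen, cells with Ly6c2 and none of Treml4, Ace and Spn were at 1149 CPM with vehicle (26 cells) and 2493 in the library labelled tamoxifen (21 cells), cells with the latter genes and no Ly6c2 at 191 (74 cells) and 1039 (47 cells), and cells with both at 1380 (33 cells) and 1726 (37 cells). Genes of neutrophil precursors also differed in the monocyte class, with Elane at 0.78 and 41.4 CPM (1 and 44 UMIs), Mpo at 0 and 33.0 CPM (0 and 35 UMIs) and Prtn3 at 46.6 and 102.7 CPM, all higher in the library labelled tamoxifen. Their part in the Chil3 levels, those of the 3 subsets included, was not tested.

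In neutrophil-like cells Chil3 was at 575 CPM with vehicle and 243 CPM in the library labelled tamoxifen (log2 ratio -1.24, -1.40 to -1.09), where 4.12% of the genes tested passed the rule (1.17% on the lower side). Only 3 cells held 50% of the vehicle UMIs and 4 those of the other library. Without the top 10 cells the levels were 76.4 and 68.6 CPM (log2 ratio -0.15), and averaging the CPM of single cells gave -0.35. Neutrophil precursor genes moved with it: of the 6 listed, 3 (Camp, Ltf and Ngp, all of secondary granules) reached 10 CPM and all 3 were lower in the library labelled tamoxifen, with a median log2 ratio of -4.03 beside 0.08 over all genes tested. Camp was at 1663 CPM with vehicle and 28.4 CPM in the other library. The 8 vehicle cells with at least 30 UMIs of the list held Chil3 at 9940 CPM, and 1 such cell was found in the library labelled tamoxifen. In the remaining cells Chil3 was at 197 CPM with vehicle and 244 CPM in the library labelled tamoxifen. The limit of 30 UMIs was chosen after the values were seen, and the part of the precursor cells in the class level was not tested. Of 8 genes of blood-type neutrophils, all tested, Lcn2 (1050 and 424 CPM) and Ifitm6 (258 and 112 CPM) were lower in the library labelled tamoxifen, and of 8 tumour-type genes, all tested, none was 2-fold apart.

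T cell-like, B cell-like, endothelial-like and epithelial-like cells held Chil3 at 47.4 to 176 CPM before depletion. The ratio of Chil3 to the UMIs of Ear1 and Ear2, 2 ribonuclease genes of the alveolar macrophages picked after their levels were seen, was 3.26 with vehicle and 2.64 in the library labelled tamoxifen within alveolar macrophage-like cells. It was 3.34 and 2.70 in T cell-like cells, 2.82 and 2.84 in endothelial-like cells and 3.11 and 2.85 in epithelial-like cells. By this pair, Chil3 in those classes stood to the Ear genes nearly as it did in alveolar macrophages. In vehicle neutrophil-like cells the ratio was 13.98, and in the C1q class it was 4.35 with vehicle and 1.19 in the library labelled tamoxifen. Against the UMIs of the alveolar macrophage marker set, the Chil3 ratio was 1.57 and 1.14 in alveolar macrophage-like cells. It was 1.27 and 1.25 in T cell-like and 1.76 and 1.01 in B cell-like cells. In endothelial-like cells it was only 0.064 and 0.139, and in epithelial-like cells 0.438 and 0.396. After depletion endothelial-like cells still held the marker set at 1336 and 1510 CPM, with Chil3 at 0. Epithelial-like cells then held the set at 164 and 153 CPM. In these classes the marker set thus holds UMIs that do not go with Chil3, and its ratio cannot be set against that of the Ear pair. How much free RNA contributed to any class was not tested. After depletion, epithelial-like cells held 0.25 and 0.17 CPM of Chil3, against 82.5 and 97.0 before.

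Chil4 (Ym2), the near copy of Chil3 that is best known from airway epithelium, gave 17 UMIs before and 137 after depletion with vehicle, and 5 and 4 UMIs in the libraries labelled tamoxifen. Of the 136 UMIs in vehicle epithelial-like cells after depletion, 80.1% came from 1 cell. Chil4 did not reach 10 CPM in any class and was left out of every comparison.

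Chil1 (the mouse counterpart of YKL-40) was an epithelial transcript in these tumours. Epithelial-like cells held 95.9% and 95.6% of its UMIs before depletion, at 1094 CPM with vehicle (980 cells) and 918 CPM in the library labelled tamoxifen (1050 cells). After depletion it was at 1150 CPM (6067 cells) and 937 CPM (6651 cells). The log2 ratios, -0.25 (-0.28 to -0.23) before and -0.30 (-0.31 to -0.28) after, were under the 2-fold rule, which 1.94% and 1.92% of the genes tested passed. Thinned shares of cells with Chil1 ran from 60.5% and 58.4% with vehicle to 53.5% and 52.7% in the libraries labelled tamoxifen. In T cell-like cells the share was 2.34% with vehicle.

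Chil1 followed the alveolar type 2-like cells. In the cluster led by Lyz1 and Cbr2, with the surfactant gene Sftpc at 150693 to 187986 CPM, it was at 2746 and 2898 CPM before depletion (vehicle, then labelled tamoxifen) and at 3354 and 2941 CPM after. In the Muc5b-led secretory cluster it was at 1608 and 1785 CPM before and 2113 and 1691 CPM after. In the Adarb2-led cluster it was at 1335 and 839 CPM before and 1370 and 858 CPM after, lower in the library labelled tamoxifen by a like amount in both pairs. In the small Ly6i-led cluster, which carries interferon-induced genes, it was at 5345 and 4566 CPM after depletion. The cluster led by Il24 and Krt14 was low, at 73.9 and 169 CPM before and 165 and 131 CPM after. Chia1, the active chitinase, was at 30.4 and 32.2 CPM in epithelial-like cells before depletion and 31.1 and 31.0 CPM after, with 98.0% and 96.3% of its UMIs there before depletion. Its log2 ratio was 0.08 (-0.05 to 0.21) before depletion and 0.00 (-0.07 to 0.06) after. Neutrophil-like cells held Chil1 too, at 86.2 CPM with vehicle and 98.4 CPM in the library labelled tamoxifen, in 12.2% and 13.3% of thinned cells.

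Retnla was found in epithelial-like cells at 432 CPM with vehicle and 53.8 CPM in the library labelled tamoxifen before depletion, from 12942 and 1809 UMIs. After depletion the levels were 310 and 62.9 CPM, from 39064 and 7784 UMIs. Both vehicle values lie above both values of the libraries labelled tamoxifen, but the libraries before and after depletion share suspensions and are not repeats. The log2 ratios were -2.98 (-3.08 to -2.93) before and -2.29 (-2.34 to -2.27) after. In epithelial-like cells 1.34% of genes before and 1.35% after were at least 2-fold lower, and Retnla was the only member among them of the 6 and 4 that reached 10 CPM. Over every alternative run, the ratio stayed past the 2-fold rule on the lower side, from -4.22 to -2.79 before depletion and from -3.11 to -2.14 after.

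Few cells carried most of it. With vehicle, 213 of 980 epithelial-like cells had a UMI before depletion and 8 held 50% of the UMIs, and after depletion 1131 of 6067 had a UMI and 31 held 50%. In the libraries labelled tamoxifen 89 of 1050 and 481 of 6651 cells had a UMI, and 2 and 8 cells held 50%. Cells at 10000 CPM or more were 19 (1.94%, 1.17 to 3.01, exact Clopper-Pearson 95% interval) and 82 (1.35%, 1.08 to 1.67) with vehicle, and 2 (0.190%, 0.0231 to 0.686) and 11 (0.165%, 0.0826 to 0.296) in the libraries labelled tamoxifen. Thinned shares of cells with Retnla were 10.3% and 7.06% with vehicle and 1.92% and 2.63% in the libraries labelled tamoxifen. The unthinned shares were 21.7%, 18.6%, 8.48% and 7.23% in the same order. Without the 10 top cells of each library Retnla was at 188 and 9.20 CPM before depletion (log2 ratio -4.22) and at 242 and 27.3 CPM after (-3.11). Those 10 cells held 56.7% of the UMIs with vehicle and 83.1% in the library labelled tamoxifen before depletion, and 22.1% and 56.7% after. The cut thus took more from the library labelled tamoxifen, and the larger ratio without these cells adds no weight to the difference.

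**Figure D3:**
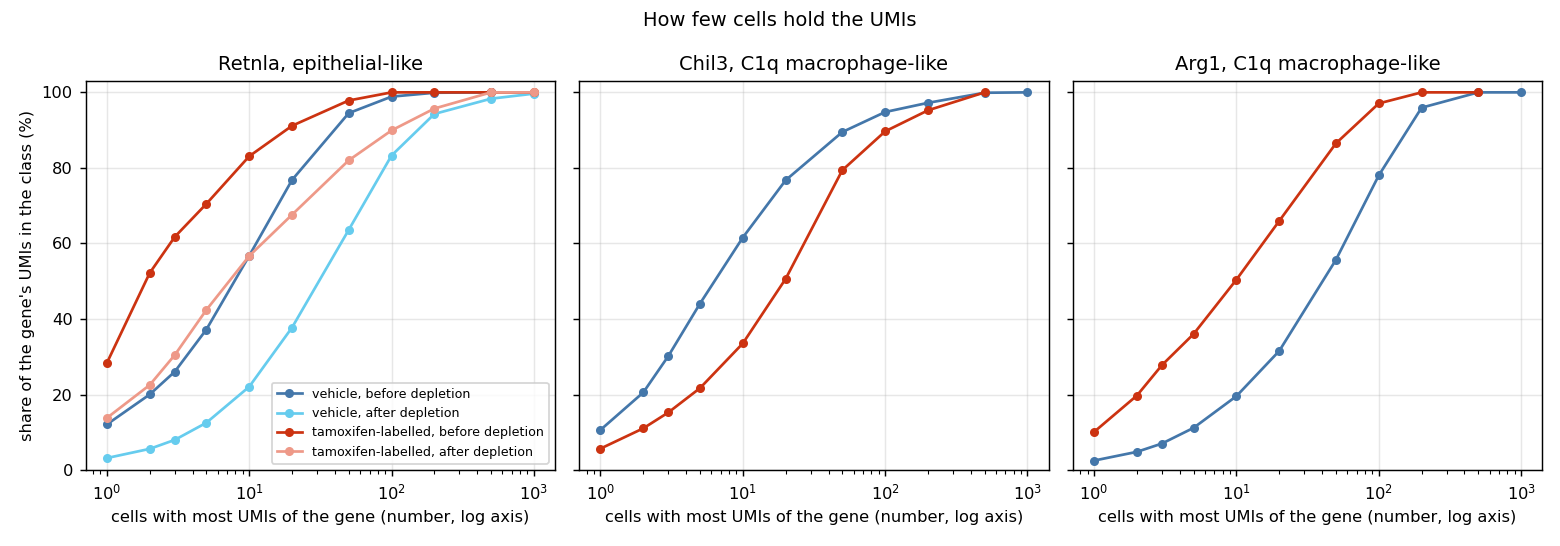
Share of a gene's UMIs in a class (vertical axis, percent) that is held by the cells with most of them (horizontal axis, number of cells, log axis), for Retnla in epithelial-like cells and for Chil3 and Arg1 in C1q macrophage-like cells; each line is 1 library. The 10 top cells held 56.7% of epithelial Retnla UMIs with vehicle before depletion and 83.1% in the library labelled tamoxifen, 61.6% and 33.5% of Chil3 UMIs, and 19.6% and 50.4% of Arg1 UMIs in C1q macrophage-like cells.

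Retnla was highest in the same Lyz1-led type 2-like cells as Chil1, among clusters with at least 100 cells in each library of a pair. It stood there at 1397 CPM with vehicle (368 cells) and 255 CPM in the library labelled tamoxifen (184 cells) before depletion, and at 1392 (1614 cells) and 190 CPM (1166 cells) after. The log2 ratios were -2.45 (-2.55 to -2.36) and -2.87 (-2.93 to -2.81), in a cluster where 0.369% and 0.255% of genes passed the rule. The difference therefore was present inside 1 cluster, and it was also set beside a smaller share of that cluster, which made up 37.6% and 26.6% of epithelial-like cells with vehicle and 17.5% and 17.5% in the libraries labelled tamoxifen. Hnf4a was near 0 in the cluster in every library, at 0.15 to 2.22 CPM. Without the top 10 cells the cluster stood at 533 and 37.0 CPM before depletion and 987 and 127 CPM after.

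Other epithelial-like clusters had the same order with exceptions. Retnla was lower in the library labelled tamoxifen in 7 of 7 clusters compared before depletion and in 7 of 9 after. Without the 10 top cells of each library, the Lyz1-led and Adarb2-led clusters stayed lower before depletion, the latter at 2.12 and 0.89 CPM. The Muc5b-led, Il24-led, Gm33055-led and Rtkn2-led clusters then stood at 0 in both libraries, and the Cdc20-led cluster at 0 and 1.31 CPM. With all cells, the Muc5b-led secretory cluster stood at 144 and 8.09 CPM before (32 and 58 cells) and 348 and 4.97 CPM after. The cycling cluster led by Cdc20 stood at 1629 and 135 CPM before (37 and 41 cells) and 829 and 16.8 CPM after. The Rtkn2-led cluster, like alveolar type 1 cells in its genes, stood at 66.8 and 1.82 CPM before (43 and 63 cells) and 40.4 and 4.06 CPM after. The first exception was a small cluster led by the interferon-induced genes Ly6i and Ubd, at 3318 CPM with vehicle (36 cells) and 6236 CPM in the library labelled tamoxifen (43 cells) after depletion. The second was the cluster led by Gm33055 and Dcpp1, at 3.40 and 9.97 CPM after depletion, near the low end of all. Without the 10 top cells of each library the first stood at 47.5 and 230 CPM and the second, turned round, at 2.35 and 0.60 CPM.

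**Figure D4:**
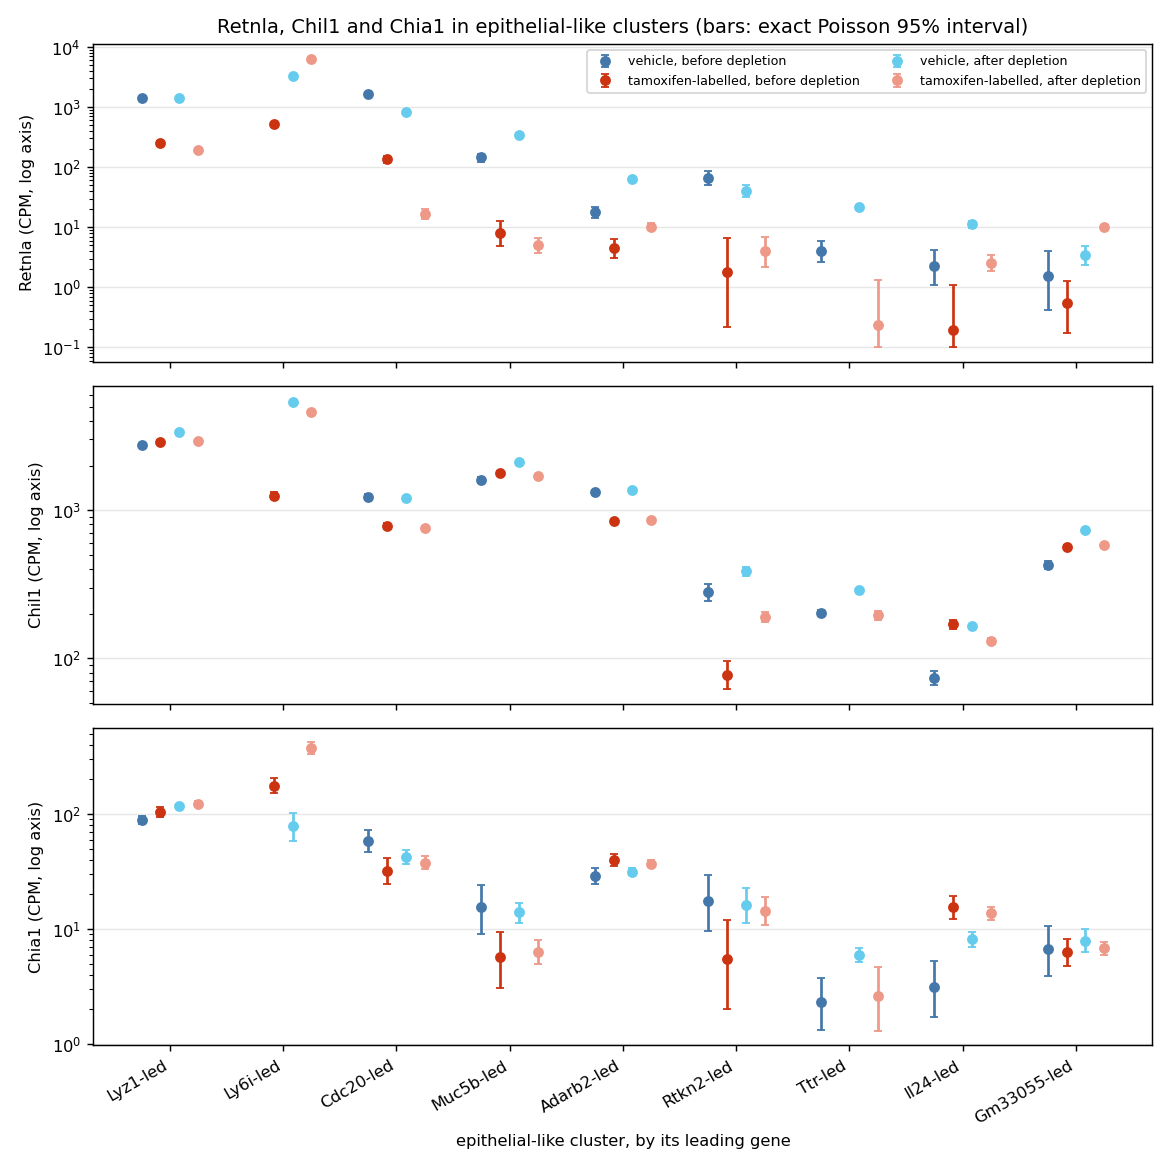
Retnla, Chil1 and Chia1 (CPM, log axes) in 9 epithelial-like clusters, in the vehicle libraries (blues) and the libraries labelled tamoxifen (reds), before (dark) and after depletion (light); bars are exact Poisson 95% intervals and a library with under 20 cells in a cluster has no point. In the Lyz1-led cluster Retnla was at 1397 and 1392 CPM in the vehicle libraries, against 255 and 190 CPM in those labelled tamoxifen, while Chil1 kept between 2746 and 3354 CPM.

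The 83 cells of the Lyz1-led cluster with Retnla at 10000 CPM or more, a set chosen by that level, kept the type 2 gene Sftpc but had less Lyz1. They were pooled over the 4 libraries. With vehicle they numbered 14 before and 65 after depletion, and in the libraries labelled tamoxifen 1 and 3. The cells compared here thus differ in library as well as in Retnla level, and the part of the library was not tested. Sftpc was at 171457 CPM in them and 172580 in the other 3249 cells of the cluster. Retnla itself was at 25666 CPM against 268. The other epithelial member Chia1 was at 774 CPM against 96.2, and Chil1 at 5207 against 3039. Slc26a4 (pendrin, an anion exchanger) was at 528 against 72.6, the alarmin Il33 at 1199 against 421 and the receptor chain Il4ra at 75.5 against 39.4. Lyz1 was lower, at 532 against 1770. Chia1 and Retnla were also found in the same cells over the class. After thinning, 1.02% of epithelial-like cells after depletion (0.856 to 1.22, exact 95% interval) had both, where the product of the single shares was 0.221%. The class joins clusters that differ in the levels of both genes, and the part of that make-up in the joint share was not tested. These joint shares are a description, since cells are not replicates.

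After depletion epithelial-like cells held 92.5% of Retnla UMIs with vehicle and 66.9% in the library labelled tamoxifen, and most of the remainder, 7.13% and 33.0%, came from 15 and 16 cells of a ciliated-like cluster led by Scgb1a1, the gene of club cells, where Retnla was at 11637 and 14634 CPM. This cluster is not part of the epithelial-like class in the comparisons above.

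In macrophages Retnla was scarce. It stood at 5.45 and 0.54 CPM in alveolar macrophage-like cells and at 17.01 and 9.70 CPM in C1q macrophage-like cells, where 1 cell held over 50% of the UMIs in each library. The Ccl24-led cluster had 46.7 and 26.5 CPM. In cycling macrophage-like cells it was at 20.5 and 0.62 CPM, from 90 and 2 UMIs (log2 ratio -3.74, -8.13 to -3.16), and at 0.48 CPM and 0 without the top 10 cells, in a class where 2% of the genes tested passed the rule. Retnla UMIs stood beside the levels of its family: Retn was at 19.2 CPM in neutrophil-like cells before depletion and Retnlb at 0.46 CPM there, the latter from 2 UMIs.

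Retnlg was a neutrophil transcript with nearly the same level in both libraries. Neutrophil-like cells stood at 1920 CPM with vehicle (658 cells) and 1766 CPM in the library labelled tamoxifen (509 cells), a log2 ratio of -0.12 (-0.19 to -0.06), and held 90.2% and 94.6% of its UMIs. Thinned shares were 24.7% (21.3 to 28.4) and 22.8% (18.9 to 27.1). Its level split the neutrophils into 2. The cluster led by S100a9 and Ly6g, as in blood neutrophils, stood at 7801 CPM with vehicle (147 cells) and 7929 CPM in the library labelled tamoxifen (97 cells), and the cluster led by Acod1 and Mmp9 at 150 (511 cells) and 126 CPM (412 cells). Without the 10 top cells of each library the former stood at 4073 and 3912 CPM and the latter at 43.6 and 17.9 CPM (log2 ratio -1.24, -1.98 to -0.63). The 8 precursor-rich vehicle cells had Retnlg at 11220 CPM, and it stood at 1546 and 1595 CPM in the cells with under 30 precursor UMIs.

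Arg1 was found mainly in C1q macrophage-like cells, at 245 CPM with vehicle and 134 CPM in the library labelled tamoxifen, which was 73.8% and 53.9% of its UMIs. The log2 ratio of -0.87 (-0.95 to -0.80) did not reach 2-fold. In the library labelled tamoxifen 10 cells held 50% of the UMIs and in the vehicle library 42 did. Without the top 10 cells of each library the levels were 199 and 67.8 CPM (log2 ratio -1.54), and averaging the CPM of single cells gave -1.49, both past the rule. The top 10 cells held 19.6% of the UMIs with vehicle and 50.4% in the library labelled tamoxifen, so leaving them out was not an equal cut. Thinned shares of cells with Arg1 were 16.3% (14.3 to 18.5) and 9.20% (7.25 to 11.5), against unthinned shares of 26.6% and 20.1%.

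The Ccl24-led macrophages of the finer clustering held 71.4% and 59.7% of all Arg1 UMIs of the 2 libraries, at 761 CPM with vehicle (449 cells) and 483 CPM in the library labelled tamoxifen (237 cells), beside 27.9 and 22.8 CPM in the Ms4a7-led cluster. Thinned shares in the Ccl24-led cluster were 45.3% and 29.5%. That name is the leading gene over the pooled libraries, and in the C1q class Ccl24 itself was far lower in the library labelled tamoxifen, as given below. Among alveolar macrophage-like cells Arg1 was at 44.7 and 35.8 CPM, and the Adamdec1-led cluster was the highest of their finer clusters, at 193 and 46.0 CPM. Epithelial-like cells had 19.3 and 23.2 CPM before depletion and 13.5 and 18.6 CPM after, with log2 ratios of 0.26 (0.11 to 0.43) and 0.44 (0.38 to 0.56). Within the 2 clusters that stood highest with vehicle the order was the other way. The Gm33055-led cluster had 52.8 and 30.7 CPM before depletion and 36.6 and 25.6 after, and the Adarb2-led cluster 38.6 and 27.9 before and 28.4 and 23.6 after. The Muc5b-led cluster had 10.3 and 39.3 CPM before and 22.5 and 16.7 after. The Gm33055-led cluster was 5.31% and 6.30% of the epithelial-like cells with vehicle, before and after depletion, and 20.9% and 22.4% of those labelled tamoxifen, so the class ratios also carry that difference in make-up.

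A small lymphoid set also carried Arg1. In the cluster led by Il17a and Cd163l1, cells with no UMI of Cd3d, Cd3e or Trdc and with a UMI of Gata3 or Il1rl1, genes of type 2 innate lymphoid cells, numbered 49 with vehicle (0.692% of kept cells, 0.513 to 0.914, exact 95% interval) and 11 in the library labelled tamoxifen (0.180%, 0.0899 to 0.322), with none after depletion. This gate was set after the values were seen. Arg1 was at 690 CPM (624 to 761) in the vehicle cells, from 401 UMIs, and at 74.7 CPM (32.2 to 147) in the others, from 8 UMIs. Chil3 was at 25.8 and 700 CPM in the same gated cells, from 15 and 75 UMIs. Cells of the same cluster with a T cell receptor complex UMI were at 85.2 CPM with vehicle. The gated cells gave 226 of the 306 Il13 UMIs and 85 of the 91 Il5 UMIs of the vehicle library, and 2 of 33 and 1 of 15 in the library labelled tamoxifen. Over all kept cells before depletion Il13, a cytokine that induces the type 2 genes, was at 3.10 CPM with vehicle (2.77 to 3.47) and 0.369 CPM in the library labelled tamoxifen (0.254 to 0.519). Il4, the other such cytokine, differed less, at 1.43 CPM (1.20 to 1.69) and 0.963 CPM (0.770 to 1.19). In T cell-like cells Il4 was at 9.43 CPM with vehicle and 13.1 CPM in the library labelled tamoxifen, from 70 and 61 UMIs. The part of cytokine-producing cells in the levels of Retnla or Arg1 was not tested.

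Mrc1, the mannose receptor, was nearly level between libraries. Alveolar macrophage-like cells stood at 1021 and 961 CPM (log2 ratio -0.09, -0.12 to -0.06), C1q macrophage-like cells at 506 and 440 CPM (-0.20, -0.25 to -0.16) and cycling macrophage-like cells at 453 and 499 CPM (0.14, 0.04 to 0.23). Thinned shares in alveolar macrophage-like cells were 78.2% and 79.9%, and in T cell-like cells 1.07% and 2.10%. By finer cluster the Htr2c-led cells were highest, at 1249 and 1261 CPM, above the Ear10-led cells with 909 and 873, which is the reverse of the order for Chil3. In neutrophil-like cells Mrc1 was higher in the library labelled tamoxifen, at 44.2 CPM against 18.9 (log2 ratio 1.18, 0.69 to 1.77), from 84 and 47 UMIs, 31.0% of the former from 1 cell, and without the top 10 cells it was at 9.51 against 7.49 CPM.

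Mgl2, a galactose-type lectin, kept to C1q macrophages and dendritic cells. The C1q class stood at 617 and 538 CPM (log2 ratio -0.20, -0.24 to -0.16) with 82.8% and 82.0% of the UMIs. The finer clustering set apart a dendritic cluster led by Asgr2 and Cd209a (the latter a marker of conventional type 2 dendritic cells), which stood highest at 1091 and 1038 CPM, and the Ms4a7-led macrophages followed at 366 and 379 CPM. The Ccl24-led macrophages, which led for Arg1, had 203 and 144 CPM. Of the thinned C1q macrophage-like cells of both libraries, 1.49% had Arg1 and Mgl2 together (1.01 to 2.12), where the product of the single shares was 5.96%. Chil3 and Arg1 were together in 3.77% (2.98 to 4.69), where the product was 1.88%. The latter rested on the vehicle library, with 4.98% (3.84 to 6.34) beside a product of 2.16%, since in the library labelled tamoxifen 1.81% (0.995 to 3.02) stood beside 1.36%. The class joins finer clusters that differ in the levels of these genes, and the part of that make-up in the joint shares was not tested. In cycling macrophage-like cells Mgl2 was at 511 and 230 CPM (log2 ratio -1.15, -1.27 to -1.03). The finer clustering gave 675 CPM with vehicle (105 cells) and 369 in the library labelled tamoxifen (68 cells) for the cycling cluster with C1q genes, and 3.63 (123 cells) and 3.80 (132 cells) for the one with alveolar macrophage genes, so the mix of the 2 differed between the libraries. The class also held 172, 214 and 251 UMIs of Elane, Mpo and Prtn3 with vehicle and 0 of each in the library labelled tamoxifen, and Siglecf was at 14.4 and 35.4 CPM. The part of this make-up in the class level was not tested. Clec10a, a relative of Mgl2, stood highest in plasmacytoid dendritic cell-like cells, at 315 CPM, and at 40.0 CPM in the C1q class.

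**Figure D5:**
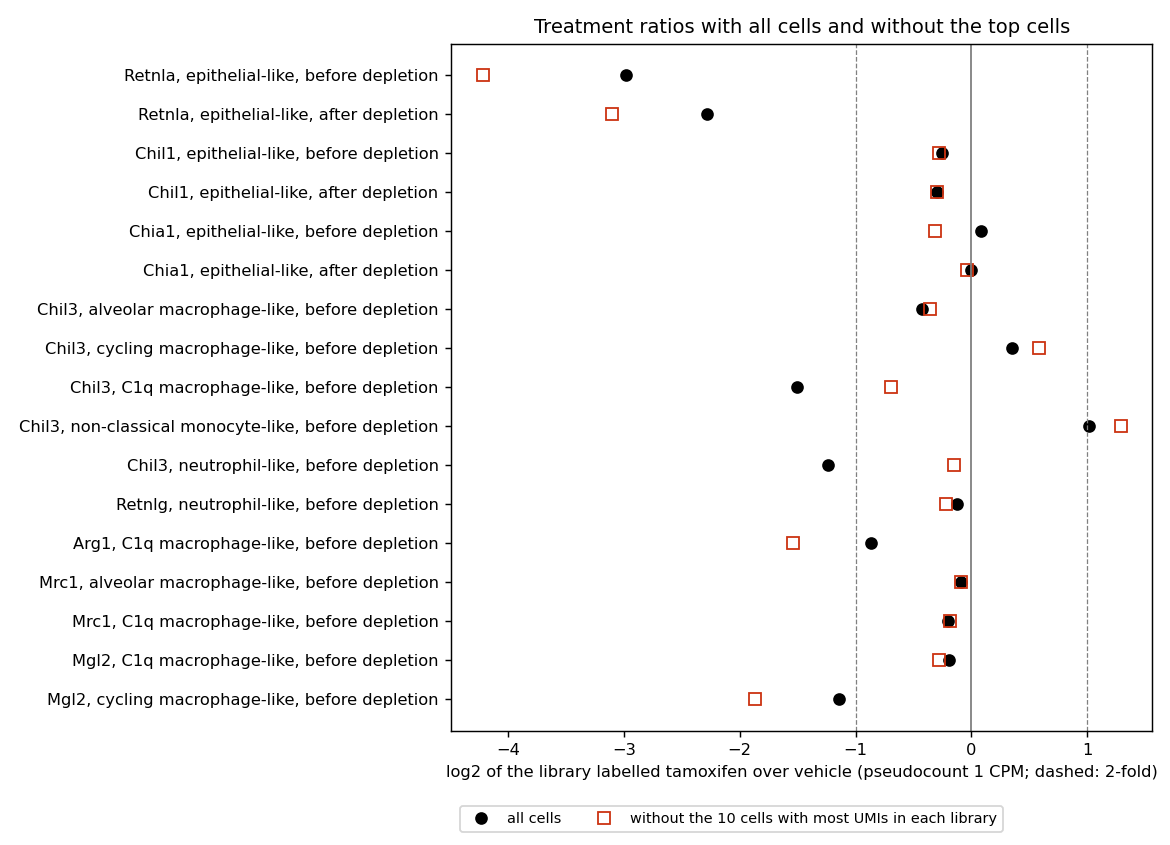
Log2 ratio of the library labelled tamoxifen over vehicle (horizontal axis, on log2(CPM + 1); dashed lines, 2-fold) for 17 combinations of a gene and a class, with all cells (filled circles) and without the 10 cells with most UMIs of the gene in each library (open squares). Retnla in epithelial-like cells lay at -2.98 and -2.29 and moved to -4.22 and -3.11, Arg1 in C1q macrophage-like cells moved from -0.87 to -1.54, and Chil3 in C1q macrophage-like and neutrophil-like cells moved inside the dashed lines, to -0.70 and -0.15.

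The remaining combinations past the rule lay outside the classes that led for the gene. Mrc1 was at 9.44 and 24.9 CPM in B cell-like cells, and Mgl2 at 0.78 and 11.3 CPM in the monocyte class, from 1 and 12 UMIs, and at 20.7 and 0.55 CPM in endothelial-like cells, from 48 and 1 UMIs. Chil3 was at 47.4 and 176 CPM in endothelial-like cells. Chil1 was at 121 CPM in vehicle B cell-like cells and 17.2 CPM in the library labelled tamoxifen, and at 22.9 and 90.3 CPM in endothelial-like cells, while Retnlg was at 39.3 and 9.44 CPM and at 59.9 and 15.5 CPM in the same 2 classes. Neutrophil genes differed there too: in B cell-like cells Camp had 722 and 1 UMIs, Ngp 553 and 0, Ltf 283 and 0, and Lcn2, which is also made by epithelial cells, 654 and 20, while Lcn2 was at 23.7 and 124 CPM in endothelial-like cells. Their part in the Chil1 and Retnlg levels was not tested. Here 5.61% and 4.17% of the genes tested passed the rule. In T cell-like cells 3 members reached 10 CPM and none passed it, beside 1.71% of genes. Without the 10 top cells of each library the count over all classes was 4 in place of 15, and the share of all genes was not computed that way.

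Removing cells with CD45 and CD31 separated the 9 genes by source, over all kept cells of a library. Chil1 was 3.01-fold higher after depletion with vehicle and 2.38-fold higher in the libraries labelled tamoxifen, Chia1 was 2.99-fold and 2.26-fold higher, and Retnla 2.18-fold and 3.82-fold higher. Chil3 was 1427-fold and 1130-fold lower, from 1390 to 0.97 CPM and from 1450 to 1.28 CPM. Mgl2 was 208-fold and 475-fold lower, Mrc1 41.9-fold and 60.2-fold, and Retnlg 18.0-fold and 17.9-fold. Arg1 was 6.21-fold and 2.29-fold lower. Of all genes tested, 10.4% and 7.98% were at least 2-fold higher after depletion and 16.1% and 14.4% lower, so 3 members moved with the first set and 5 with the second. Fewer cells of a type and fewer transcripts per cell are not separated by these values over all cells.

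The pathway that induces the type 2 genes was measured in the same cells. Of 15 genes of interleukin 4 and interleukin 13 reception and signalling, 12 reached 10 CPM in alveolar macrophage-like cells, 12 in C1q macrophage-like cells and 9 in epithelial-like cells, and none was 2-fold apart in any of the 3 classes, epithelial-like cells after depletion included. Their median log2 ratios were 0.04, -0.09 and 0.04 before depletion, beside -0.03, -0.06 and -0.03 over all genes tested. Il4ra was at 243 CPM in neutrophil-like cells, 116 in C1q macrophage-like, 62.2 in alveolar macrophage-like and 40.6 in epithelial-like cells of the pooled libraries before depletion. Il13ra1 was at 284, 86.3, 91.4 and 21.1 CPM in the same order. Jak3 was the one gene of this list past the rule in neutrophil-like cells, at 8.46 CPM with vehicle and 18.4 CPM in the library labelled tamoxifen.

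Other genes known from type 2 activation did not follow 1 direction. Of 19 measured, 10 were tested in alveolar macrophage-like cells: the elastase Mmp12 (420 and 908 CPM) and the growth factor Igf1 (1.64 and 17.5 CPM) were higher in the library labelled tamoxifen and the eotaxin Ccl24 was lower (10.3 and 0.05 CPM, the latter 1 UMI). Of 15 tested in C1q macrophage-like cells, Ccl24 was lower (80.5 and 2.04 CPM) and the chemokine Ccl8 higher (11.3 and 38.1 CPM). The medians were 0.01 and -0.40, beside -0.03 and -0.06 over all genes. Ccl24 thus had a far lower level in the library labelled tamoxifen in the class that holds Arg1 and the 19 Chil3-rich cells. Of 10 arginine genes, all tested in C1q macrophage-like cells, Nos2, which competes with arginase for arginine, was the one past the rule, at 0.82 and 11.5 CPM. Of 11 genes of type 1 activation, 10 were tested there, with Nos2 higher and Il6 lower (32.8 and 14.9 CPM). Of the relatives of the chitinases, Chid1 and Ctbs reached 10 CPM in some classes and neither was 2-fold apart in any, while Chil5, Chil6 and Chit1 stayed below that level. Of the receptors linked to chitinase-like proteins, Cd44 (1963 CPM in neutrophil-like cells) and Tmem219 were tested in every class and neither passed the rule, while Il13ra2, below 10 CPM in epithelial-like cells, stood there at 0.90 and 4.29 CPM before depletion (27 and 144 UMIs) and 1.60 and 4.54 CPM after (202 and 562 UMIs). Arg2, the second arginase, stood at 553 CPM in neutrophil-like and 162 CPM in epithelial-like cells, classes where Arg1 was low.

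Over the 30 clusters with at least 50 cells before depletion, the genes whose log2 levels ran most like a member's were listed by Pearson's r, as a description of clusters that share libraries. Chil3 ran with Ear2 (0.97), Ear1 (0.97) and Ccl6 (0.96), and Chil1 with Lcn2 (0.94), Slc34a2 (0.93) and Lamp3 (0.92). Chia1 ran with Corin (0.94), Retnla with Pigr (0.85) and Cbr2 (0.82), and Retnlg with Cstdc5 (0.93) and Mrgpra2b (0.91). Mrc1 ran with Tfec (0.94) and Slc7a2 (0.92), and Mgl2 with Aif1 (0.92). Arg1 had the weakest match, Radx at 0.74.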

How the data were processed

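The 4 droplet libraries were 1 per group, so that no test over samples was possible and no p-value is given. The values are whole UMI counts per gene and barcode, deposited as filtered matrices that the authors made with Cell Ranger (7.0.1 per the file headers, 7.2.0 and mm10 per the submitters' processing notes). Cells with at least 200 genes, at most 20% mitochondrial UMIs and a doublet score under 0.25 were kept; the caller's own threshold marked almost no cells in 3 libraries and was not used. Clustering (scanpy 1.11.5, 1991 variable genes without the 9 members, 40 components, Leiden resolution 1) was done over all libraries, and clusters were named from marker lists. The names of epithelial-like clusters by leading gene were chosen after the data were seen. Summed UMIs gave CPM, and libraries were called apart at 2-fold on log2(CPM + 1) with 10 CPM in either. Intervals at 95% cover counting error only: the exact Poisson interval of a CPM, the exact conditional binomial one of a ratio, to which no pseudocount was added, and the Clopper-Pearson one of a share. Shares of cells were compared after thinning to 2000 UMIs, leaving out shallower cells. The code was tested on simulated counts. All 9 members are named; genes of other lists may be named where they were 2-fold apart at 10 CPM, at most the 4 furthest per list and class, but the text names only those of the lists and classes it describes. The genes most like a member are named too. Members and lists were chosen with earlier results of these data known. Promoters come from RefSeq, with 8 of 9 members matched.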

Additional observations from a re-analysis of the deposited data

Results flagged for a closer look

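Chil3, Mgl2 and Chil1 each lay past the 2-fold rule in opposite directions in different classes before depletion, which is what drew attention to them; the difference between classes was not tested, since each group is 1 library. The log2 ratio of Chil3 (library labelled tamoxifen over vehicle) was -1.50 in C1q macrophage-like and -1.24 in neutrophil-like cells, and 1.01 in monocyte-like and 1.87 in endothelial-like cells. That of Mgl2 was -1.15 in cycling macrophage-like and -3.80 in endothelial-like cells, and 2.79 in monocyte-like cells, where it rested on 1 and 12 UMIs. That of Chil1 was -2.74 in B cell-like and 1.94 in endothelial-like cells.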

How the results depend on the processing

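No paired analysis was possible because each group holds 1 library, and for the same reason no replicate could be left out. Against the 15 combinations of a gene and a class that were 2-fold apart before depletion, 23 were apart with no CPM minimum, 5 under a 4-fold rule and 4 without the 10 cells with most UMIs of the gene in each library, which was chosen as an alternative after seeing the data. The share of all genes was not computed under these 3. Chil3 in C1q macrophage-like cells, at -1.50, did not reach the 4-fold rule, was 0.14 with clusters built on the members as well, and was -0.70 without the 10 top cells. Chil3 in neutrophil-like cells, at -1.24, did not reach the 4-fold rule either, was -0.35 as an average of single cells and -0.15 without the 10 top cells. Signs turned for Chil3 in endothelial-like cells (-0.043) and Mrc1 in B cell-like cells (-0.79) without the 10 top cells, for Mgl2 in monocyte-like cells with at least 1000 genes per cell (-0.090), and for Retnlg in B cell-like cells at resolution 2 (1.28). Except where a value above shows it, the cause was not tested. Scaling by TMM factors (edgeR 4.0.16) or the median of ratios changed none of 44 results.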
